A study of Mus musculus with 2 samples.

Results

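The cells described here are mutant lung epithelial cells that kept a high level of Ager, the receptor gene whose protein marks the thin alveolar type 1 (AT1) cells of the gas exchange surface. They were chosen by measured values in the mutant library: at least 500 detected genes, under 10% mitochondrial counts, Ager at 0.6% or more of the barcode's UMIs (unique molecular identifiers, which count captured RNA molecules), at most 2 UMIs of the alveolar type 2 (AT2) genes Lamp3, Slc34a2 and Abca3 together, and at most 2 of Pecam1, Col1a2 and Ptprc together, which mark endothelial, mesenchymal and immune cells. The rule found 227 barcodes of 9012 in the series, called Ager-high mutant cells here. The mutant lungs came from mice at postnatal day 10 whose library title names Nkx2-1 and Aqp5 and whose genotype label says only mutant; the control library, of the same age, has the genotype label control. Neither the deleted part of Nkx2-1 nor the way Aqp5 was used is given in the sources used here, and neither is the number of animals behind a library. In both libraries epithelial, endothelial, mesenchymal and immune cells of the lung were purified by FACS and loaded together on a 10x Chromium 3' kit (version 2). The cells were set against the remaining 2043 epithelial barcodes of the mutant library, called the rest of the mutant epithelium. These passed the same limits on detected genes, mitochondrial counts, the 3 AT2 genes and Pecam1, Col1a2 and Ptprc, but had Ager under 0.6%. They also had at least 3 UMIs of Epcam, Cdh1, Krt8 and Krt18 together, a limit not put on the Ager-high cells. The other comparison was with 561 control barcodes that passed the same rule as the Ager-high mutant cells, called Ager-high control cells.

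AT1 cells are large, flat cells that cover most of the alveolar surface, bring air within reach of the capillaries and send signals such as VEGFA to the endothelium. NKX2-1 is a homeodomain transcription factor that specifies the lung epithelium and is expressed by both AT1 and AT2 cells. In mice, loss of NKX2-1 from lung epithelium is known to let gut programmes appear, with genes of the stomach among them, and the Aqp5 locus, active in AT1 cells, has been used to drive recombination there. Cells that leave or enter the AT1 state often pass through a state with high keratin 8.

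The start regions of 3 genes are shown because their genes stood in different relations to the control in these cells: Ager chose the cells, Clic5 was near the control level and Hopx was below it. Each sequence runs 5′ to 3′ over 250 bases before and 50 bases after the start, from RefSeq on GRCm38.p6. Capitals mark matches to the letters CAAGTG, which lie at the core of known NKX2-1 binding sequences, or to CACTTG on the other strand. In all, 13.6% of 32851 start regions of this length hold at least 1 match. The Ager window is chr17:34597600-34597899 (plus strand) and the Clic5 window is chr17:44188322-44188621 (plus strand). Hopx has 2 annotated starts, and the one shown, chr5:77095218-77095517 (minus strand), was picked because it holds a match. The other Hopx window, chr5:77115074-77115373, and the Ager, Clic5, Nkx2-1 and Aqp5 windows hold 0 matches. A match describes the letters only.
Ager: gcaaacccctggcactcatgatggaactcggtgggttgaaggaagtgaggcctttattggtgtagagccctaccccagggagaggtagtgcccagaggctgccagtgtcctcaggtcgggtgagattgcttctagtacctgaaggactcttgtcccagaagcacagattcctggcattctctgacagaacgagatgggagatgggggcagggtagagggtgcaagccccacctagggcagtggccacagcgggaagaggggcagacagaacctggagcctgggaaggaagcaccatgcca
Clic5: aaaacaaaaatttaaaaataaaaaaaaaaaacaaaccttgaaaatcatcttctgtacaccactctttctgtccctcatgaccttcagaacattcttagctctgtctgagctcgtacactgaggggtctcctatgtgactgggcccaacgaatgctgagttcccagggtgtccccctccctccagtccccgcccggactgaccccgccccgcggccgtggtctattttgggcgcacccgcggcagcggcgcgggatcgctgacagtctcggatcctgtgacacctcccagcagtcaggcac
Hopx: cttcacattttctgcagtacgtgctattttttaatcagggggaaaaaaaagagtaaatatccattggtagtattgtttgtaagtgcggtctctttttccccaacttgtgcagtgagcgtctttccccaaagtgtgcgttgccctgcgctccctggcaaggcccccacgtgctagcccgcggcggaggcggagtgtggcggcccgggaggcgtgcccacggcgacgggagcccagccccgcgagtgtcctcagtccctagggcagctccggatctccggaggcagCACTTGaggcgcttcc
In GENCODE vM21 on GRCm38, Ager spans chr17:34597862-34600936, Clic5 chr17:44188584-44280172, Hopx chr5:77086988-77115121 and Nkx2-1 chr12:56531958-56536908. Nkx2-1 is overlapped by the antisense gene Gm26973 and Hopx by Hopxos. The sources used here do not say whether the counting used strand.

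The Ager-high mutant cells made up 8.79% (95% exact binomial interval 7.72 to 9.95) of the 2583 mutant epithelial barcodes, and the Ager-high control cells 34.0% (31.7 to 36.3) of 1650 control ones. Cells had been sorted by lineage before loading, and a share may reflect the sort. Median depth was 9446 UMIs in the Ager-high mutant cells, 12493 in the rest and 6453 in the Ager-high control cells, and the median number of genes was 2919, 3372 and 2238 in the same order. There was 1 library per genotype, so no difference between them has a replicate check and no test was run. Levels are summed counts of a group scaled to 1000000 UMIs (CPM) with exact Poisson intervals, and ratios have exact conditional binomial intervals, all at 95% and all covering counting error only. Of the 227 cells, 225 had at least 3 UMIs of Epcam, Cdh1, Krt8 and Krt18, as had 495 of the 561 Ager-high control cells. The epithelial totals above hold the barcodes that passed this limit, with at most 2 UMIs of Pecam1, Col1a2 and Ptprc, and all Ager-high cells. The limit was on raw UMIs and was not scaled to depth, which differed between the libraries. The libraries shared 27 barcode sequences, 3 of them among the Ager-high mutant cells and 0 in both Ager-high groups.

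By the rule's own measure, Ager held 0.6002% to 3.72% of a mutant cell's UMIs, with a median of 1.07%, against 0.622% to 6.01% and a median of 2.22% in the Ager-high control cells. The 2 ranges overlap, and the mutant cells sit in the lower part of the control range. The summed level of Ager was 12008 CPM in the Ager-high mutant cells, 453 CPM in the rest and 22013 CPM in the Ager-high control cells. The distance from the rest is set by the rule. Just inside the threshold, between 0.6% and 0.7%, lay 22 mutant and 4 control barcodes, and just outside it, between 0.5% and 0.6%, lay 38 mutant and 3 control barcodes. The threshold therefore divides a continuous range in the mutant library. Before the limits on other genes, 238 mutant barcodes passed on Ager, of which 6 were lost to the AT2 limit and 5 to the limit on other lineages. In the control library 654 passed on Ager, and 62 and 31 were lost to the same limits.

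Nkx2-1, the gene named in the mutant's title, was low in most Ager-high mutant cells and present in a minority. No Nkx2-1 UMI was seen in 175 of 227 cells (77.1%, interval 71.1 to 82.4), 1 UMI in 18 and 2 or more in 34, with a highest count of 22. In the rest of the mutant epithelium 1924 of 2043 barcodes (94.2%) had none. In the Ager-high control cells, which were sequenced less deeply, 62 of 561 (11.1%) had none and 420 had 2 or more. The median cell thus had no Nkx2-1 UMI in both mutant groups, while the median control cell had 431 CPM. The summed level was 72.4 CPM (61.8 to 84.2) in the Ager-high mutant cells, 8.17 CPM in the rest and 479 CPM (458 to 502) in the Ager-high control cells. This is 6.62-fold lower than in the control (5.65 to 7.81) and 8.85-fold higher than in the rest (7.21 to 10.9). After thinning every barcode to 2000 UMIs, 9.25% of the Ager-high mutant cells, 1.76% of the rest and 56.5% of the Ager-high control cells had an Nkx2-1 UMI, against 0.236% of mutant and 2.65% of control endothelial barcodes, which should lack the gene. The ratio to the rest depends on what the rest holds: its log2 value of 3.15 was 1.49 when mutant barcodes above the AT2 limit were counted in the rest, and 2.43 on thinned counts. The 240 mutant barcodes with high AT2 genes had 248 CPM. A 3' tag does not report which exons are present, so these UMIs do not check a deletion.

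**Figure D1:**
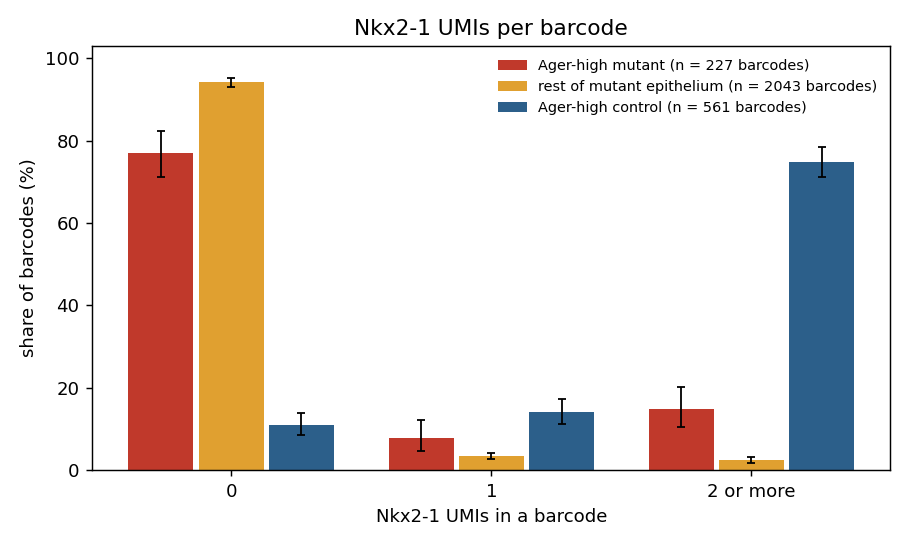
Share of barcodes (%) with 0, 1 and 2 or more Nkx2-1 UMIs in Ager-high mutant cells, the rest of the mutant epithelium and Ager-high control cells; bars are shares and lines are 95% exact binomial intervals. The 0-UMI class holds 77.1% of the Ager-high mutant cells, 94.2% of the rest and 11.1% of the control cells.

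AT1 genes other than Ager set these cells apart from the rest of the mutant epithelium, while most of them stayed below the control. All 45 listed AT1 genes were measured, meaning at least 20 UMIs over both groups. Against the rest, all 45 were higher and 39 of them at least 2-fold, where 7.98% of 12883 genes were at least 2-fold higher; the list's median log2 ratio was 2.46, against -0.10 for all genes. Against the Ager-high control cells, 35 were lower, 18 of them at least 2-fold, and 1 was at least 2-fold higher, where 7.55% of 9972 genes were at least 2-fold lower and 7.53% at least 2-fold higher; the median log2 ratio was -0.63, against 0.02 for all genes. The list was known to mark AT1 cells and the cells were chosen on Ager, so its direction against the rest is a description of the choice. The 35 genes lower than in the control were all above the rest, which put them between the 2 groups.

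Summed over the list without S100a6, the 44 AT1 genes held 0.704% to 5.56% of the UMIs of an Ager-high mutant cell, with a median of 2.90%. The rest ranged from 0.0481% to 3.46% with a median of 0.733%, and the Ager-high control cells from 1.09% to 7.72% with a median of 4.31%. Of the 227 cells, 218 were above the 90th percentile of the rest, and 17 were above the control median. Of the 2043 remaining mutant barcodes, 2 were above the median of the Ager-high mutant cells. The Ager-high mutant cells thus overlap the lower part of the control range. Most of them lay above most of the rest, though the 2 ranges overlap. Close to the threshold the 2 mutant groups were alike. The 44 genes summed to 20334 CPM in the 38 mutant barcodes with Ager at 0.5% to 0.6% and to 21766 CPM in the 22 at 0.6% to 0.7%. Among cells with Ager at 1% to 2% of UMIs, where the median was 1.29% in mutant and 1.59% in control cells and Ager thus still differed, the 44 genes summed to 31214 CPM in 117 mutant cells and 37508 CPM in 185 control cells, and the list's median log2 ratio to the control was -0.45 in place of -0.63. Of 44 genes measured there, 1 was at least 2-fold higher and 12 lower, where 8.75% of 8061 genes were higher and 6.29% lower.

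**Figure D2:**
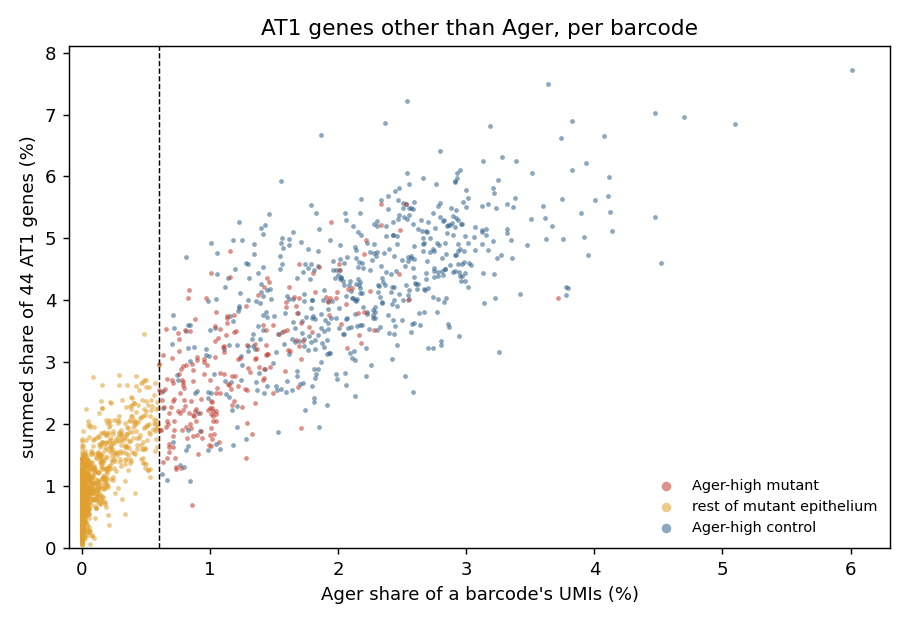
Share of 44 AT1 genes without Ager and S100a6 (%, vertical axis) against the share of Ager (%, horizontal axis) in each barcode; the dashed line is the 0.6% threshold. Ager-high mutant cells have a median of 2.90% on the vertical axis, the rest of the mutant epithelium 0.733% and Ager-high control cells 4.31%.

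A set of AT1 genes was at or near the control level. Clic5, a chloride intracellular channel family member of the AT1 membrane cytoskeleton, ranged from 0 to 2428 CPM in single Ager-high mutant cells with a median of 614 CPM, from 0 to 2698 CPM with a median of 0 in the rest, and from 0 to 2099 CPM with a median of 537 CPM in Ager-high control cells. Its summed levels were 701, 77.4 and 621 CPM in that order of groups, a ratio of 1.13 to the control (1.06 to 1.202). The mutant and control cells overlap over nearly the whole range, and the middle of the rest lies at 0. Akap5, which anchors protein kinase A at the membrane, had 944 CPM in the Ager-high mutant cells, 172 CPM in the rest and 791 CPM in the control cells. Pdpn, the apical glycoprotein podoplanin, had 697 CPM in the Ager-high mutant cells, 116 CPM in the rest and 790 CPM in the control cells. Icam1, an adhesion molecule of the AT1 apical surface, had 767, 105 and 828 CPM in the same groups. In all, 10 of the 45 genes were at or above the control level: Ahnak, Akap5, Anxa1, Anxa3, Clic5, Cyp2b10, Egfl6, Lmo7, Ndnf and S100a6. Of these Ndnf, a secreted factor, had 1374 CPM in the Ager-high mutant cells, 365 CPM in the rest and 885 CPM in the control cells. S100a6, a small calcium-binding protein, did little to separate the groups, with 12137, 11183 and 9381 CPM.

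Other AT1 genes were well below the control. Hopx, a homeodomain-only cofactor, ranged from 0 to 2520 CPM in single Ager-high mutant cells with a median of 155 CPM, from 0 to 1469 CPM with a median of 0 in the rest, and from 0 to 4103 CPM with a median of 489 CPM in the control cells. Summed, it had 251 CPM in the Ager-high mutant cells, 28.6 CPM in the rest and 580 CPM in the control cells, 2.31-fold lower than in the control (2.11 to 2.53) and 8.78-fold higher than in the rest (7.88 to 9.78). Rtkn2, which encodes rhotekin 2, had a median of 0 in single Ager-high mutant cells and in the rest, and of 684 CPM in the control cells. Its sums were 166 CPM in the Ager-high mutant cells, 4.95 CPM in the rest and 704 CPM in the control cells, and 24.2%, 1.03% and 72.5% of thinned barcodes had a UMI. Rtkn2 was thus present in a minority of the mutant cells and in most control cells. Aqp5, the apical water channel whose locus is named in the mutant's title, had 1075 CPM in the Ager-high mutant cells, 173 CPM in the rest and 3081 CPM in the control cells. Igfbp2, a secreted binding protein of insulin-like growth factors known from later AT1 cells, had 1091, 147 and 3221 CPM in the same groups.

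Within the list, Aqp1 and Fjx1 were among the genes furthest below the control. Aqp1, a water channel that lung endothelium also expresses, had 89.3 CPM in the Ager-high mutant cells, 6.76 CPM in the rest and 1439 CPM in the control cells, 16.1-fold below the control (14.03 to 18.6). Fjx1, a member of the four-jointed box family, had 8.23, 2.65 and 194 CPM, 23.6-fold below the control (15.0 to 39.3). Lims2, a focal adhesion adaptor, had 16.5 CPM in the Ager-high mutant cells and 131 CPM in the control cells, and Bdnf, a neurotrophin, had 23.4 and 134 CPM. The sodium channel subunits Scnn1g and Scnn1b, which drive alveolar fluid uptake, had 147 and 100 CPM in the Ager-high mutant cells, 6.44 and 5.17 CPM in the rest, and 405 and 182 CPM in the control cells. Cldn18, the alveolar tight junction claudin, differed less, with 2066, 523 and 3273 CPM.

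Ager was also found in endothelial barcodes, and those values belong beside these differences. It had 20.03 CPM in mutant endothelial barcodes and 552 CPM in control ones, and single barcodes reached 0.150% and 1.93% of UMIs. The 44 AT1 genes without S100a6, which include Aqp1, summed to 6098 and 6539 CPM in the same groups. For 16 of the 45 AT1 genes, the other lineages differed between the libraries alike, as they did for 1271 of all 9972 genes. Alike means that endothelial, mesenchymal and immune barcodes differed in the same direction and by at least 0.5 of the size on the log scale. Aqp5, Rtkn2, Pdpn and Cldn18 are among the 16 AT1 genes. Their endothelial levels were low beside those of the gated cells: Aqp5 had 5.39 CPM in mutant and 84.8 CPM in control endothelial barcodes, and Rtkn2 had 3.08 and 19.1 CPM. Of the 29 AT1 genes without this pattern, 21 were lower than in the control. At least 2-fold lower were 12, Hopx, Igfbp2, Aqp1 and Fjx1 among them, against 7.55% of all genes. The part of free RNA or of mixed barcodes in the differences was not tested.

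**Figure D3:**
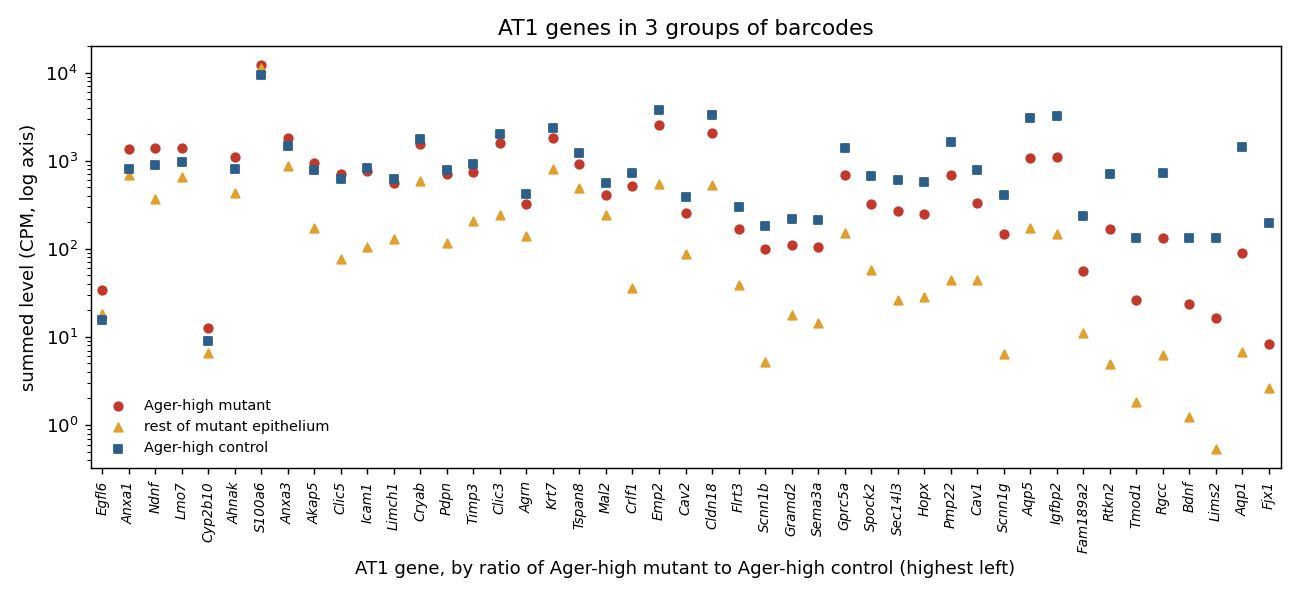
Summed level (CPM, log axis) of each of the 45 AT1 genes in Ager-high mutant cells (circles), the rest of the mutant epithelium (triangles) and Ager-high control cells (squares), ordered by the ratio of Ager-high mutant to control cells. In 35 genes the circle lies between triangle and square, and in 10 it lies at or above the square.

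Signals that AT1 cells send differed in both directions from the control. Vegfa, the growth factor for alveolar capillaries, ranged from 0 to 2176 CPM in single Ager-high mutant cells with a median of 528 CPM, from 0 to 1966 CPM with a median of 0 in the rest, and from 0 to 3859 CPM with a median of 763 CPM in the control cells. Most Ager-high mutant cells therefore kept Vegfa, at summed levels of 547 CPM against 63.8 CPM in the rest and 809 CPM in the control. Pdgfa, a ligand for alveolar fibroblasts, had 454, 244 and 1075 CPM in the same groups. Shh and Wnt3a, signals of low level, had 29.9 and 19.9 CPM in the Ager-high mutant cells, 3.57 and 0.354 CPM in the rest, and 135 and 88.8 CPM in the control cells. Others ran the other way: Sema3c, a semaphorin, had 47.2 CPM in the Ager-high mutant cells, 241 CPM in the rest and 5.49 CPM in the control cells, beside 683 CPM in mutant endothelial barcodes. Areg, a ligand of the EGF receptor, had 51.1, 56.5 and 2.61 CPM. Over the list, 14 of 30 measured genes were at least 2-fold higher and 7 at least 2-fold lower than in the rest, where 7.98% and 15.3% of all genes were; against the control 7 of 24 were at least 2-fold higher and 8 lower, where 7.53% and 7.55% of all genes were.

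Of the basement membrane and integrin genes, 11 of 24 were at least 2-fold higher than in the rest and 3 at least 2-fold lower, against 7.98% and 15.3% of all genes, with a median log2 ratio of 0.95. Against the control the median was -0.33, and the 2 of 23 at least 2-fold higher and 3 lower were near the 7.53% and 7.55% of all genes. Col4a3 and Col4a4, the collagen IV chains of the alveolar basement membrane, had 359 and 411 CPM in the Ager-high mutant cells, 26.5 and 38.4 CPM in the rest, and 778 and 879 CPM in the control cells. Sparc, a matrix glycoprotein, had 3861, 490 and 7617 CPM in the same groups. The laminin chain gene Lama3 was close to the control, with 209 CPM in the Ager-high mutant cells, 64.0 CPM in the rest and 217 CPM in the control cells. Itgb4, an integrin of hemidesmosomes, ran the other way, with 7.80 CPM in the Ager-high mutant cells, 33.3 CPM in the rest and 0.523 CPM in the control cells.

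Genes of the AT2 list, without the 3 used in the rule, were higher than in the control in 16 of 24 cases, 12 of them at least 2-fold, and 5 were at least 2-fold lower, against 7.53% and 7.55% of all genes. The median log2 ratio was 0.96. Sftpd, a secreted collectin, ranged from 0 to 7482 CPM in single Ager-high mutant cells with a median of 1308 CPM, from 0 to 5597 CPM with a median of 691 CPM in the rest, and from 0 to 5897 CPM with a median of 0 in the control cells. Its sums were 1458 CPM in the Ager-high mutant cells, 813 CPM in the rest and 123 CPM in the control cells, 11.9-fold above the control (10.8 to 13.1). An Sftpd UMI was seen in 98.7% of Ager-high mutant cells, and the median control cell had none. Mutant endothelial barcodes had 16.6 CPM and control ones 84.3 CPM. Napsa, a surfactant-processing protease, had 368, 28.1 and 120 CPM in the 3 groups, and Cxcl15, a lung epithelial chemokine, had 213, 134 and 59.3 CPM. Cd74, the invariant chain of antigen presentation, had 1020, 165 and 555 CPM.

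Surfactant protein genes read most often as AT2 markers did not share this. Sftpc had 6239 CPM in the Ager-high mutant cells, 447 CPM in the rest and 8260 CPM in the control cells, with medians of 703, 106 and 2173 CPM per barcode. Sftpc was also found outside the epithelium: endothelial barcodes had 806 CPM in the mutant and 5253 CPM in the control library. The median cell of each Ager-high group was thus below the summed endothelial level of its library, while the group's own sum was above it. A median and a sum are unlike measures where a few barcodes hold most of the UMIs. In 34 of the 227 mutant cells (15.0%) and 56 of the 561 control cells (9.98%) Sftpc was at 1% of UMIs or more, and 20 barcodes held 70.1% of the Sftpc UMIs of the Ager-high mutant cells. Lyz2, also a macrophage gene, had 39.4, 47.0 and 172 CPM, and Lgi3 had 34.2, 1.52 and 210 CPM. Other genes of the AT2 list were highest in the rest: Muc1 had 182 CPM in the Ager-high mutant cells, 549 CPM in the rest and 30.1 CPM in the control cells, and the lipid carrier gene Fabp5 had 242, 844 and 22.5 CPM, beside 227 CPM in mutant endothelial barcodes. The rest was chosen to be low in AT2 genes, and with the AT2-high barcodes counted in it the list's median log2 ratio to the rest was -1.65 in place of 0.78.

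Genes of the transitional and injury state had the highest median above the control of the lists with at least 5 measured genes. Of 21 measured, 15 were at least 2-fold higher and 1 at least 2-fold lower, against 7.53% and 7.55% of all genes, and the median log2 ratio was 1.71. Against the rest, 5 of 23 were at least 2-fold higher and 7 lower, against 7.98% and 15.3% of all genes, with a median of -0.14. Krt8, the keratin that gives this state its name, ranged from 0 to 7361 CPM in single Ager-high mutant cells with a median of 1148 CPM, from 0 to 10564 CPM with a median of 983 CPM in the rest, and from 0 to 1547 CPM with a median of 378 CPM in the control cells. The 2 mutant groups overlap almost fully and reach well past the highest control cell. Summed, Krt8 had 1574 CPM in the Ager-high mutant cells, 1443 CPM in the rest and 451 CPM in the control cells. Its partner Krt18 had 1569, 1458 and 309 CPM, and Krt19 had 1786, 2013 and 672 CPM. Krt8 and Krt18 were among the genes that chose the rest, so their values there depend partly on that choice. Both were kept in the list's counts and median against the rest. Cldn4, a claudin of injured alveolar epithelium, had 113, 151 and 6.27 CPM, 18.0-fold above the control (11.9 to 28.7). Krt8 also differed in this direction in other lineages, at 21.6 CPM in mutant and 9.32 CPM in control endothelial barcodes, far below the epithelial levels. Among cells with Ager at 1% to 2% the list's median log2 ratio to the control was 1.81.

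Within this list the cells parted from the rest in a few abundant genes. Clu, the secreted chaperone clusterin, ranged from 0 to 15247 CPM in single Ager-high mutant cells with a median of 214 CPM, from 0 to 65390 CPM with a median of 5369 CPM in the rest, and from 0 to 603 CPM with a median of 0 in the control cells. Clu was at 0.1% of UMIs or more in 20 of 227 Ager-high mutant cells (8.81%), 1635 of 2043 of the rest (80.0%) and 0 of 561 control cells, where 0 allows a share of up to 0.655%. Mutant endothelial barcodes had 172 CPM of Clu, and 41.0% of thinned Ager-high mutant cells had a UMI against 19.6% of those barcodes. Nupr1, a stress-induced transcription cofactor, had 127 CPM in the Ager-high mutant cells, 595 CPM in the rest and 5.23 CPM in the control cells. Gsta4, a glutathione transferase, had 93.6, 1381 and 3.40 CPM. Spp1, the secreted phosphoprotein osteopontin, had 4.33 CPM in the Ager-high mutant cells and 579 CPM in the rest; the mutant endothelial level was 17.3 CPM. Clu, Nupr1 and Gsta4 thus lay between control and rest, while Spp1 was at background.

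Most measured genes of the stomach were far lower in the Ager-high mutant cells than in the rest of the mutant epithelium. Of 13 gastric genes measured against the rest, 10 were at least 2-fold lower, where 15.3% of all genes were, and the median log2 ratio was -5.03. Tff2, a trefoil peptide of gastric mucus, had 3 UMIs in all (1.30 CPM) in the Ager-high mutant cells, 504 CPM in the rest and 0 in the control cells, and Tff1 had 0.867, 339 and 0 CPM. Any Tff1 or Tff2 UMI was seen in 5 of 227 Ager-high mutant cells (2.203%), 1261 of 2043 of the rest (61.7%) and 0 of 561 control cells. The stomach protease gene Cym had 4.77 CPM in the Ager-high mutant cells and 296 CPM in the rest. Anxa10, a gastric annexin, had 0 UMIs in the Ager-high mutant cells and 67.4 CPM in the rest. For 6 of the 13 genes, Tff1, Tff2, Cym and Anxa10 among them, the level was at or below that of mutant endothelial barcodes, and is read as background. Of the 13 genes, 3 were higher than in the rest, and 1 of them, the pepsinogen gene Pgc, at least 2-fold. Pgc had 33.4 CPM in the Ager-high mutant cells, 5.17 CPM in the rest and 34.0 CPM in the control cells.

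The other gut-related lists held fewer measured genes. Of 11 intestinal genes, 6 were at least 2-fold lower than in the rest and 0 at least 2-fold higher, against 15.3% and 7.98% of all genes. Lgals4, an intestinal galectin, had 3.90 CPM in the Ager-high mutant cells and 226 CPM in the rest, and Ttr, the thyroxine carrier, had 0.433 and 68.2 CPM. For 5 of the 11 genes, Lgals4 and Ttr among them, the level was at or below that of mutant endothelial barcodes. Phgr1, an intestinal gene, was found in 60 of 227 Ager-high mutant cells and had 45.1 CPM there, 108 CPM in the rest and 4.44 CPM in the control cells. The list summed to 894 CPM in the Ager-high mutant cells, 1066 CPM in the rest and 457 CPM in the control cells, most of it from claudins in both Ager-high groups. The claudins Cldn3 and Cldn7 were on the list but are also expressed by lung epithelium, with 297 and 544 CPM in the Ager-high mutant cells, 194 and 394 CPM in the rest, and 178 and 268 CPM in the control cells. Hnf4a, a master regulator of gut and liver epithelium, had 1 UMI (0.433 CPM) in the Ager-high mutant cells, 28.3 CPM in the rest and 0 in the control cells, and Foxa3 had 1.30, 27.7 and 0.523 CPM. For 3 of 6 measured gut and liver transcription factors, Hnf4a among them, the level was at or below that of mutant endothelial barcodes. Among cornified envelope genes, Sprr1a ranged from 0 to 4377 CPM in single Ager-high mutant cells and from 0 to 32636 CPM in the rest, and was at 0 in every control cell; 64 of 227 Ager-high mutant cells had a UMI. Its sums were 84.9 CPM in the Ager-high mutant cells and 2716 CPM in the rest, beside 39.7 CPM in mutant endothelial barcodes, and 1 cell held 24.0% of its UMIs in the Ager-high mutant cells. Sprr2a3 had 2.17 and 278 CPM, with 5.78 CPM in mutant endothelial barcodes; its reads are uncertain, since Sprr2a1 and Sprr2a2 are near-identical copies.

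**Figure D4:**
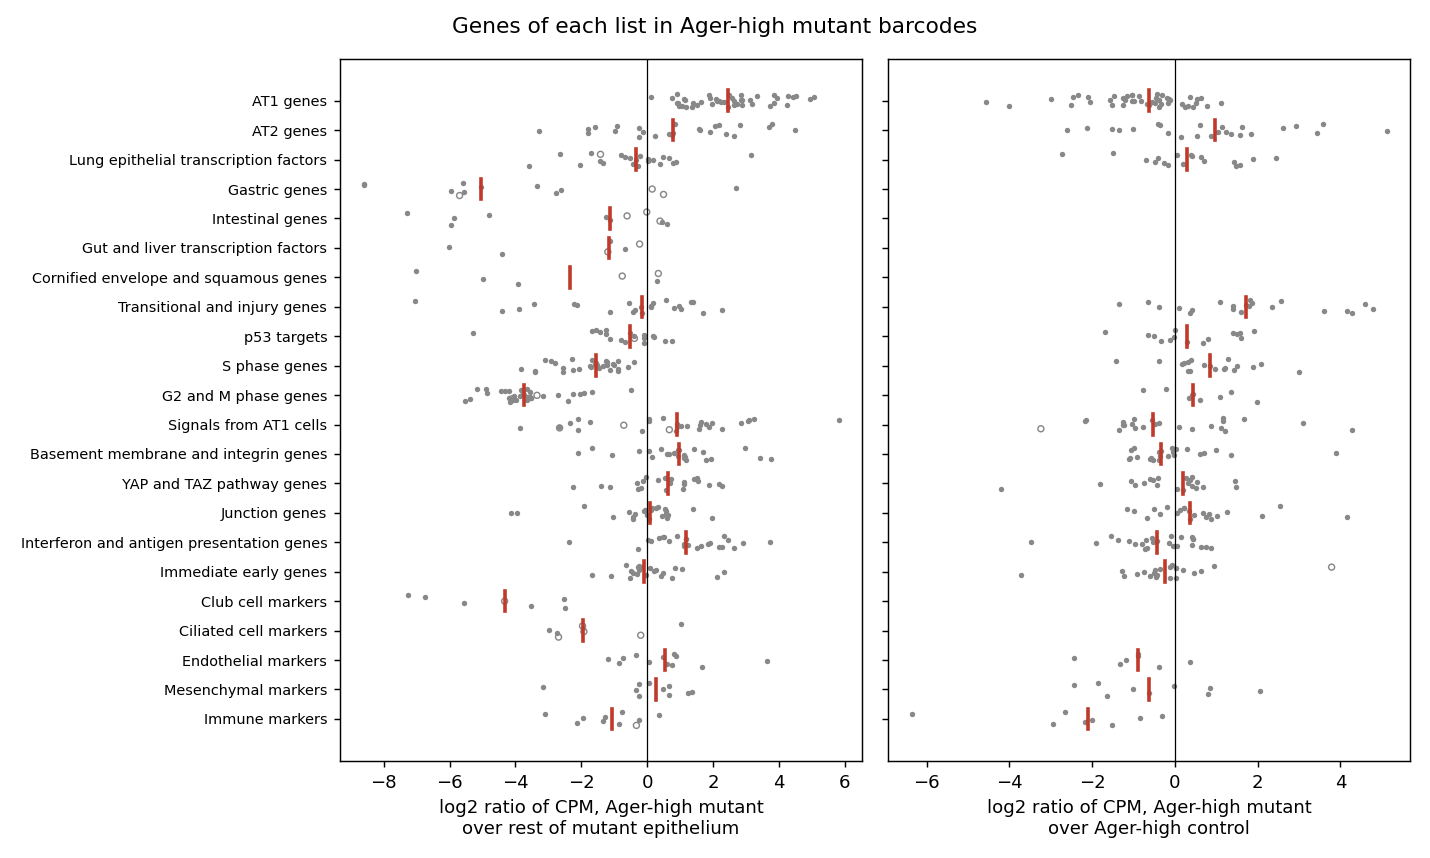
Log2 ratios of the genes of each list (points; open where a group has 0 UMIs and takes 3 counts) with the list's median (red bars): Ager-high mutant cells over the rest of the mutant epithelium (left) and over Ager-high control cells (right, lists with at least 5 measured genes). AT1 genes have medians of 2.46 and -0.63, gastric genes -5.03 on the left, and transitional genes -0.14 and 1.71.

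The Ager-high mutant cells carried few transcripts of dividing cells. All 30 genes of DNA synthesis and all 34 of the G2 and M phases were lower than in the rest, with median log2 ratios of -1.56 and -3.74. At least 2-fold lower were 25 and 33 of them, against 15.3% of all genes. Mki67, a marker of cycling nuclei, had 6.07 CPM in the Ager-high mutant cells, 111 CPM in the rest and 1.31 CPM in the control cells, and Top2a, the topoisomerase of mitotic chromosomes, had 3.90, 115 and 0.523 CPM. After thinning to 2000 UMIs, 12 of 227 Ager-high mutant cells (5.29%, interval 2.76 to 9.05) held over 3 UMIs of these lists, against 30.9% of the rest and 2 of 561 control cells (0.357%). Mutant endothelial barcodes had 197 CPM of Mki67, and the part of free RNA in the low values was not tested. Against the control, 8 of 19 measured S phase genes were at least 2-fold higher and 1 lower, against 7.53% and 7.55% of all genes, with a median of 0.84. Ccnd1, the G1 cyclin D1, differed more than any phase gene named: 327 CPM in the Ager-high mutant cells, 282 CPM in the rest and 13.1 CPM in the control cells, 25.0-fold above the control (18.8 to 34.0), beside 264 CPM in mutant and 220 CPM in control endothelial barcodes. Cdkn1a, the cell cycle inhibitor p21, had 172, 374 and 57.2 CPM, beside 251 CPM in mutant endothelial barcodes, and 1 cell held 21.6% of its UMIs in the Ager-high mutant cells. Of 15 p53 target genes 5 were at least 2-fold above the control and 1 below, against 7.53% and 7.55% of all genes. Of 19 measured against the rest 7 were at least 2-fold lower and 0 higher, against 15.3% and 7.98% of all genes.

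Lung transcription factors differed in both directions. Id2, an inhibitor of bHLH factors that marks early lung tips, had 428 CPM in the Ager-high mutant cells, 608 CPM in the rest and 78.9 CPM in the control cells; Id1 had 593, 577 and 160 CPM, and Id3 722, 453 and 955 CPM, beside 874 and 997 CPM of Id1 and Id3 in mutant endothelial barcodes. Elf3 and Ehf, Ets factors of barrier epithelia, had 37.3 and 3.90 CPM in the Ager-high mutant cells, 154 and 47.3 CPM in the rest, and 12.5 and 0 CPM in the control cells. Foxa2 had 98.8, 54.2 and 119 CPM and Gata6 105, 102 and 146 CPM in the same groups. Of 18 genes measured against the control, 5 were at least 2-fold higher and 2 lower, against 7.53% and 7.55% of all genes. Of 23 against the rest 1 was at least 2-fold higher, Nkx2-1 itself, and 7 lower, against 7.98% and 15.3% of all genes. Of the YAP and TAZ pathway genes, Ankrd1, a known target, had 4.77 CPM in the Ager-high mutant cells, 5.73 CPM in the rest and 88.3 CPM in the control cells, whereas Ctgf had 167, 34.7 and 125 CPM and Cyr61 532, 146 and 1046 CPM. That list's median log2 ratio was 0.64 to the rest and 0.19 to the control.

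Interferon and antigen presentation genes were higher than in the rest in 23 of 25 cases, 16 of them at least 2-fold against 7.98% of all genes, and the median of their log2 ratios was 1.19. H2-K1, a class I heavy chain, had 379 CPM in the Ager-high mutant cells, 159 CPM in the rest and 285 CPM in the control cells, and the class II gene H2-Ab1 had 94.0, 19.3 and 56.2 CPM. Ifitm3, an antiviral membrane protein, ran the other way, with 24.3, 127 and 34.8 CPM, beside an endothelial level of 1154 CPM in the mutant library. Against the control the list's median was -0.43, with 0 of 25 genes at least 2-fold higher and 5 lower, against 7.53% and 7.55% of all genes. Junction genes had a median of 0.08 to the rest and 0.36 to the control. Epcam had 568, 609 and 237 CPM and Cdh1 318, 428 and 173 CPM in the 3 groups. Epcam and Cdh1 were among the genes that chose the rest, so their values there depend partly on that choice. Immediate early genes, which respond to dissociation, had medians of -0.10 and -0.23.

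Cells with and without an Nkx2-1 UMI were both AT1-like by the list, and 717 of 7903 genes differed at least 2-fold between them. The 52 cells with a UMI had a median depth of 8975 UMIs and the 175 without one 9701 UMIs. Without a UMI, 40 of 45 AT1 genes were at least 2-fold higher than in the rest, where 8.77% of 12852 genes were. The median log2 ratio was 2.24. These cells passed the Ager limit and the rest did not, so this direction is a description of the choice. Against the control the median of the cells without a UMI was -0.66, with 1 of 45 at least 2-fold higher and 18 lower, where 7.85% and 8.47% of 9821 genes were. For the cells with a UMI the median against the control was -0.44, with 1 of 45 at least 2-fold higher and 9 lower, where 6.18% and 10.1% of 9252 genes were. Between the 2 sets, 7 of 44 AT1 genes were at least 2-fold higher with a UMI and 1 lower, where 3.04% and 6.04% of 7903 genes were (9.07% in either direction), and the median log2 ratio was 0.23, against -0.04 for all genes. A UMI count of 0 at this depth does not show that the gene was off: 11.1% of control cells also had none.

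Rtkn2 and Hopx were higher in cells with an Nkx2-1 UMI, Clic5 was higher by less, and Pdpn was lower. Rtkn2 had 366 CPM in cells with an Nkx2-1 UMI, 112 CPM in those without and 704 CPM in the control cells, a ratio of 3.27 (2.66 to 4.02) between the 2 mutant sets. Hopx had 445, 199 and 580 CPM, a ratio of 2.24 (1.88 to 2.65), and Rgcc, a cell cycle regulator, had 374, 67.1 and 725 CPM, beside 635 CPM in mutant endothelial barcodes. Clic5 had 907, 646 and 621 CPM, Pdpn 584, 728 and 790 CPM, and Akap5 1027, 921 and 791 CPM. Igfbp2 ran the other way, with 462 CPM with an Nkx2-1 UMI, 1260 CPM without and 3221 CPM in the control cells. The surfactant gene Sftpa1 had 376, 15.9 and 119 CPM, but 1 cell held 60.3% of its UMIs in the cells with an Nkx2-1 UMI. Likewise Krtap17-1, with 208 and 8.80 CPM in the 2 mutant sets, had 49.0% of its UMIs in 1 cell. Of 22 AT2 genes measured between the 2 sets, 6 were at least 2-fold higher with a UMI and 2 lower, where 3.04% and 6.04% of 7903 genes were. That list's median log2 ratio was 0.31. Sftpc was at 1% of UMIs or more in 13 of 52 cells with an Nkx2-1 UMI and 21 of 175 without. Cells without an Nkx2-1 UMI had more Nupr1 (36.8 CPM with and 152 CPM without), Kcne2, a potassium channel subunit (159 and 462 CPM), the metallothionein gene Mt2 (194 and 489 CPM) and Fabp5 (85.8 and 284 CPM). Transitional genes as a list had a median log2 ratio of -0.54, against -0.04 for all genes. Of 20 measured, 1 was at least 2-fold higher and 3 lower, against 3.04% and 6.04% of all genes.

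**Figure D5:**
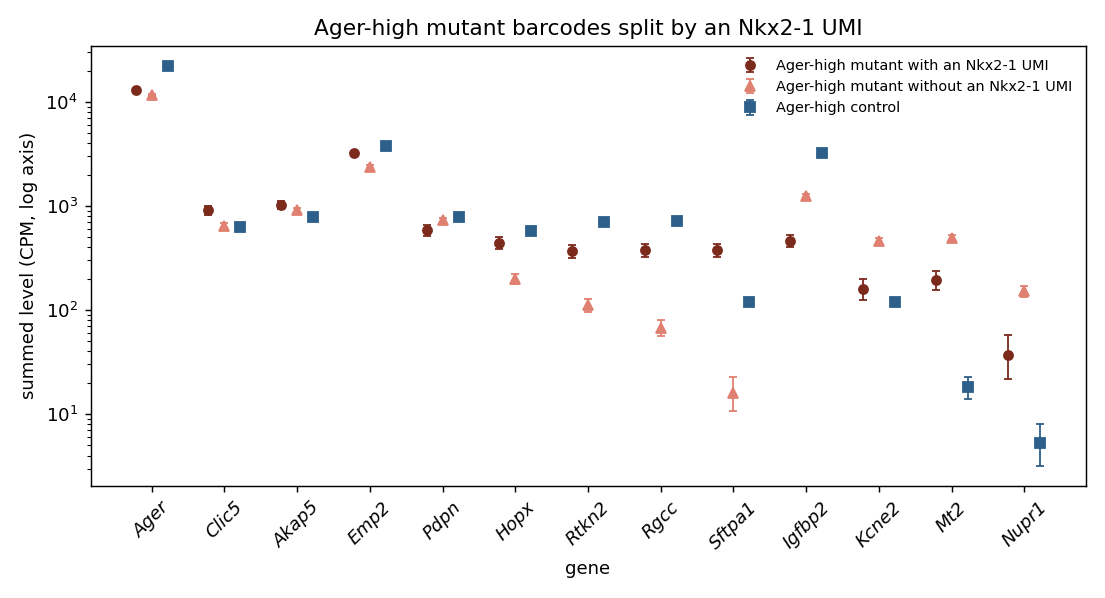
Summed level (CPM, log axis) of 13 genes in Ager-high mutant cells with an Nkx2-1 UMI (circles), those without (triangles) and Ager-high control cells (squares); lines are 95% exact Poisson intervals. Rtkn2 has 366, 112 and 704 CPM and Igfbp2 462, 1260 and 3221 CPM in that order.

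Within the Ager-high mutant cells, other AT1 genes stood higher where Ager did. From the 50 cells with Ager at 0.6% to 0.8%, through the 86 at 0.8% to 1.2%, to the 91 at 1.2% or more, the 44 AT1 genes summed to 22606, 26749 and 36275 CPM. Aqp5 had 627, 983 and 1451 CPM, Hopx 140, 258 and 313 CPM, and Rtkn2 75.6, 112 and 278 CPM in the same order. Clu had 548, 496 and 279 CPM, and Sftpd hardly moved, with 1405, 1455 and 1494 CPM. Control cells of the same bands, 12, 46 and 503 barcodes, had 876, 359 and 80.6 CPM of Sftpd. Their Sftpc was 69926, 29900 and 4582 CPM, against 2221, 9668 and 5046 CPM in the mutant bands. The lower control bands were thus few barcodes rich in Sftpc, and the part of AT2 RNA in their Sftpd was not tested. Nkx2-1 had 45.3, 78.3 and 82.6 CPM, and 18.0%, 22.1% and 26.4% of cells had a UMI of it; after thinning these shares were 8.00%, 10.5% and 8.79%, from 4, 9 and 8 cells. Ager is part of each barcode's total, and the bands are cuts of a continuous range.

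Over all genes with at least 50 UMIs over both groups and 100 CPM in the higher one, the highest ratios to the control were those of Ccnd1, Nupr1, Mt2, Cldn4, Ly6e, Akr1b8, Mt1, Sftpd, Fabp5 and Mal. The metallothionein genes Mt1 and Mt2, which buffer metal ions, had 649 and 427 CPM in the Ager-high mutant cells, 1359 and 743 CPM in the rest, and 52.8 and 18.0 CPM in the control cells. All 10 except Sftpd and Ccnd1 were higher still in the rest. The lowest ratios were those of BC100530, S100a9, S100a8, Gm5483, Stfa1, Ddc, Fjx1, Aqp1, Scgb1a1 and Lims2. The first 5 are neutrophil genes, and 4 control cells had immune markers at 1% of UMIs or more; in the control cells 1 barcode held 84.3% of the BC100530 UMIs. Ddc, a decarboxylase of amine synthesis, had 6.07 CPM in the Ager-high mutant cells, 13.0 CPM in the rest and 171 CPM in the control cells. Against the rest, the highest ratios included those of Rtkn2, Tmem37, Scnn1g, Rgcc, Matn4, Scnn1b, Itm2a, Fbln5 and Pmp22, each of which was higher still in the control cells. Fbln5, an elastic fibre protein, had 477, 29.7 and 1391 CPM. The lowest were those of Tff1, Tff2, Scgb3a2, Spp1, Sprr2a3, Scgb1a1, Agr2, Cym, Il18 and Lgals4.

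Markers of other cell types were low in the Ager-high mutant cells. The 12 endothelial markers summed to 165 CPM in the Ager-high mutant cells, 43.2 CPM in the rest and 338 CPM in the control cells, and Esam, which AT1 cells also express, made up 114, 9.13 and 258 CPM of this. The 12 mesenchymal markers summed to 90.6, 151 and 128 CPM, and the 11 immune markers to 65.9, 165 and 670 CPM. Tcf21, C1qb and Cd3e were at 0 in the Ager-high mutant cells. The 8 club cell markers summed to 345, 6339 and 505 CPM, of which Gsto1 made up 296, 1710 and 165 CPM. Scgb1a1, the club cell secretoglobin, had 40.3 CPM in the Ager-high mutant cells, 4318 CPM in the rest and 325 CPM in the control cells. Endothelial barcodes had 61.6 CPM of Scgb1a1 in the mutant and 395 CPM in the control library, above the Ager-high cells of each. Scgb1a1 was at 1% of UMIs or more in 28 of 2043 barcodes of the rest. Gabrp and Scgb3a1 were at 0 in the Ager-high mutant cells. The 8 ciliated cell markers summed to 625, 358 and 1657 CPM, of which Tppp3 made up 619, 302 and 1645 CPM, while Foxj1, the ciliary master regulator, had 1.30, 10.2 and 0.261 CPM. Red cell genes summed to 2.60, 2.80 and 3.40 CPM.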

How the data were processed

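Raw UMI counts per gene and barcode were deposited by the authors as 1 matrix per library with 27998 genes. The submitters' processing notes list Cell Ranger, Seurat and the build mm10, with no version or setting. The libraries held 4551 mutant and 4461 control barcodes, with 47271104 and 29862980 UMIs. Members, groups, gene lists and thresholds were chosen with earlier results of these data known. Counts were summed per group with python 3.11.15, numpy 2.4.6, scipy 1.17.1 and pandas 2.3.3, and divided by the group's UMIs to give CPM. Intervals are exact at 95% (Poisson for levels, Clopper-Pearson for shares, conditional binomial for ratios) and cover counting error only. With 1 library per genotype no test was possible. A gene was measured with at least 20 UMIs over both groups and counted as different at 2-fold or more; a group at 0 UMIs was set to 3 counts. The 7 genes of the rule were left out of the 23 lists and of all such counts. Epcam, Cdh1, Krt8 and Krt18, which chose the rest of the mutant epithelium, were kept in both. Shares across depths were compared after thinning each barcode to 2000 UMIs (seeds 1 and 2). Summing was tested on simulated data.

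Genes were named by rule: Ager, Nkx2-1, Clic5 and Hopx; in each list the most abundant genes and those with the largest and smallest ratios; and in each comparison the 10 genes at either end of the ratios, given 50 or more UMIs and 100 or more CPM. Further genes were named for their known roles after their values were seen, and some genes that the rule names are not reported here. Apoc2 and Cd37 were not matched among the files' gene names. Doublets were scored with Scrublet in scanpy 1.11.5, at 0.8% per 1000 barcodes. It marked 90 mutant barcodes (2.04%), 2 of them Ager-high, and 10 control barcodes (0.241%), and marked barcodes were left out only as an alternative. Start regions came from RefSeq (GRCm38.p6) and gene positions from GENCODE vM21 (GRCm38). In all, 13 alternatives were planned and 3 were added after seeing the data. Figures were drawn with matplotlib 3.10.9.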

Additional observations from a re-analysis of the deposited data

How the results depend on the processing

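Of 99 alternative values for the 8 main results, 88 stayed close to the reported value and 11 moved. Of 512 values for 36 other results, 492 stayed close, 19 moved and 1 was classed as reversed. The number of Ager-high mutant cells was 139 with Ager at 1% or more and 135 with the AT2 genes of the rule at 0 UMIs, where the Nkx2-1 log2 ratio to the control was -3.15. The Nkx2-1 log2 ratio to the rest was 2.66 as a mean over barcodes, 2.43 on thinned counts, 2.75 without cycling barcodes, 1.49 with the AT2-high barcodes kept in the rest, and 3.63 without airway barcodes, the last chosen after seeing the data. Genes at least 2-fold different from the control numbered 3833 with a minimum of 1 UMI (2583 higher, 1250 lower) and 621 with a minimum of 100; against the rest they numbered 7011 with a minimum of 1 UMI (5037 higher, 1974 lower). Against the rest, 1570 genes were higher and 1935 lower among cells with Ager at 1% to 2%. The median log2 ratio of immune markers over the rest was 0.029 with Ager at 0.4% or more, in place of -1.05. With a minimum of 1 UMI the cornified list's median over the rest was 1.61 in place of -2.33, as genes at 0 UMIs take 3 counts. For the others the cause was not tested. No paired analysis was possible because there was 1 library per genotype, which also leaves no replicate to leave out. Genes under 20 UMIs were below what this depth can compare.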
